A study of Mus musculus with 14 samples.

Results

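The receptor gene Kit and 8 further genes of differentiating spermatogonia were followed across 14 RNA sequencing libraries of mouse testis cells: Sohlh1, Sohlh2, Dmrt1, Dmrtb1, Taf4b, Rhox13, Esx1 and Prss50. They were chosen by name, and all 9 were present among the 24984 gene symbols of each of the 2 count tables and passed the filter on low counts in both. Every library came from c-KIT-positive spermatogonia of C57BL/6J mice, isolated by flow cytometry. In the deletion experiment, 2 Rosa26-CreERT2; Cbx2[Flox/Δ] animals had received 3 injections of 200 µL tamoxifen at 20 mg/mL in corn oil, and 2 Rosa26-CreERT2; Cbx2[Flox/+] animals had received the oil without the drug. All 4 animals carried the CreERT2 recombinase, which Rosa26 drives in most cell types, and genotype and drug differed together between the groups. In the 23KRA experiment, 5 Cbx2[+/+] animals served as controls for 5 Cbx2[23KRA/23KRA] animals, in whose CBX2 protein alanine takes the place of lysines and arginines in the CaPS domain, and none was treated. Ages are not given here, and the labels name as many animals as libraries.

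Spermatogonia that respond to retinoic acid leave the stem cell pool, switch on the receptor tyrosine kinase c-KIT and pass through a series of divisions before meiosis. KIT ligand, made by Sertoli cells, drives this phase through PI3K and MAP kinase signalling. The germ cell helix-loop-helix factors SOHLH1 and SOHLH2 are needed for the switch and promote Kit transcription in mice. The DM-domain factor DMRT1 holds back meiosis in spermatogonia, whereas its relative DMRT6, encoded by Dmrtb1, turns off spermatogonial genes as meiosis approaches. TAF4B is a germ cell form of a TFIID subunit, RHOX13 and ESX1 are homeodomain proteins encoded on the X chromosome, and Prss50 encodes a testis protein of the serine protease family. CBX2 belongs to PRC1, a Polycomb complex that silences genes, and the 2 comparisons ask whether its loss, or loss of the charge of its CaPS domain, changes transcription in these cells.

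The promoters of 7 of the 9 genes were found in RefSeq's table for GRCm38.p6, and those of Dmrt1 and Taf4b were not used. Of these, 4 are shown because they belong to the receptor, to the pair of factors that act on it and to the gene with the smallest unadjusted p after deletion. Each runs 5′ to 3′ along the gene, from 250 bases before to 50 bases after a RefSeq start. Kit is on the plus strand at chr5:75574737-75575036, Sohlh1 on the minus strand at chr2:25847199-25847498, Sohlh2 on the plus strand at chr3:55181794-55182093 and Esx1 on the minus strand at chrX:137120277-137120576. The Esx1 window lies inside the GENCODE span of the gene, 137115397 to 137122083, so the RefSeq start used is downstream of the GENCODE one. Capitals mark matches on either strand to CANNTG, the E-box bound by helix-loop-helix factors, to AGGTCA, a half-site of retinoic acid receptors, and to ACATTGT, the core of the sequence bound by DMRT1.
Kit: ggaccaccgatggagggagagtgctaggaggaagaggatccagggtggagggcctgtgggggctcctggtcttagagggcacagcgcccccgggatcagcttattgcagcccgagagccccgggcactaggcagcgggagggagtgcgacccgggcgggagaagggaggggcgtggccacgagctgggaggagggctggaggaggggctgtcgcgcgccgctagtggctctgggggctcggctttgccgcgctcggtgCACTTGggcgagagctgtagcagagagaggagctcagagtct
Sohlh1: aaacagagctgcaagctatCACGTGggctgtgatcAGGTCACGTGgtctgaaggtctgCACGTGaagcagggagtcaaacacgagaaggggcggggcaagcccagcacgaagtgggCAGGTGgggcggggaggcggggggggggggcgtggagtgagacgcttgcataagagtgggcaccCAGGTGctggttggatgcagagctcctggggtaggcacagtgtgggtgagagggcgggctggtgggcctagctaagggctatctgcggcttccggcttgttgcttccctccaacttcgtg
Sohlh2: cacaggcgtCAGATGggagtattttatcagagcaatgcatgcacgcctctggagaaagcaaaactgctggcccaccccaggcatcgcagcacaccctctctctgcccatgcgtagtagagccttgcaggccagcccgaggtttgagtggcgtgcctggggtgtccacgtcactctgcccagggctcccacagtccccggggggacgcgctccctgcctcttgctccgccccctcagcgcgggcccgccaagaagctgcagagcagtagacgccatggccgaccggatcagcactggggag
Esx1: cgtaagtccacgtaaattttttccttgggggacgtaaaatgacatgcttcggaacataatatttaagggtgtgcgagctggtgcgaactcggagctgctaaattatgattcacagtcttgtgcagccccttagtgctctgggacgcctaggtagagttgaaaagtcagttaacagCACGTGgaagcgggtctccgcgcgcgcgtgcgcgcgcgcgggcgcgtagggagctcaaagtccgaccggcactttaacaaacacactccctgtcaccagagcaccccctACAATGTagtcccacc

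The Sohlh1 promoter held the most E-boxes of the promoters matched. It had 5, at 231, 211, 192, 134 and 70 bases upstream of the start, and at least 5 occur in 2.1% of all 32851 promoters in the table. The farthest 3 read CACGTG, a form of the E-box that is also a match to CANNTG and is found at least 3 times in 0.0883% of promoters; the middle one overlaps an AGGTCA. Kit had 1 E-box, which begins at base 9 counted from the start as base 1, Sohlh2 had 1 at 241 bases upstream, Rhox13 had 1 at 214, Esx1 had 1 CACGTG at 75, and each of the 2 Dmrtb1 promoters in the table had 3. E-boxes are common, with at least 1 in 72.3% of promoters, and Prss50 had none. Esx1 was the one matched gene with an ACATTGT, read there on the opposite strand and found in 2.96% of promoters, and Sohlh1 the one with an AGGTCA, found in 16.3%. Counts of CpG in the 4 promoters shown were 20 for Kit, 14 for Sohlh1, 17 for Sohlh2 and 24 for Esx1, against a median of 7 in all promoters. Rhox13 had 5. These matches describe letters in a window and not bound sites.

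The libraries held 28169990 to 31166500 counts each in the deletion experiment and 14562564 to 19814511 in the 23KRA experiment. Because the experiments used different kits, mRNA with SMART-Seq and total RNA respectively, each table was scaled and tested alone, and levels set across tables are normalized separately. Cbx2 itself was at 93.9 to 97.7 CPM (counts scaled to library depth with TMM factors) in oil controls and at 78.5 to 86.5 CPM after tamoxifen, a log2 fold change of -0.21 (SE 0.12, with adjusted p = 0.971 in edgeR). Counts cover the whole gene, so the share of cells with a recombined allele cannot be read from it. In the 23KRA experiment, wild-type libraries had 53.2 to 83.6 CPM of Cbx2 and homozygous libraries 48.8 to 89.7 CPM. The labelled cell type was checked on markers: Stra8, a gene switched on by retinoic acid, stood at 507 to 596 CPM in the deletion libraries and at 541 to 819 CPM in the 23KRA libraries. Among genes of undifferentiated spermatogonia, the stem cell receptor gene Gfra1 was at most 9.50 CPM in any library. Others of that list were higher: Zbtb16, a zinc finger gene, stood at 29.3 to 36.8 CPM in the deletion libraries and 63.1 to 95.5 CPM in the 23KRA libraries, Sall4 at 76.1 to 90.5 and 48.3 to 83.1 CPM, and Uchl1 at 448 to 513 and 255 to 346 CPM. Of 9 genes listed for mast cells, another Kit-positive cell type, the receptor gene Fcer1a had no count in any library, and the protease genes Cpa3, Cma1, Mcpt4, Tpsb2 and Tpsab1 and the receptor gene Ms4a2 stayed at or under 0.860 CPM. The other two were higher: Gata2, a transcription factor gene, was at 12.5 to 15.3 CPM in the deletion libraries and 5.86 to 12.03 CPM in the 23KRA libraries, and Hdc, for histamine synthesis, at 4.85 to 5.56 and 0.287 to 5.28 CPM. Spermatid transcripts were present in the sorted cells, with Prm1 at 897 to 1183 CPM in the deletion libraries and 29.7 to 128 CPM in the 23KRA libraries. In bulk samples, fewer cells of a type and less RNA per cell cannot be told apart.

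Kit, whose protein was used to sort the cells, was among the least abundant of the 9 transcripts once levels were divided by merged exon length. In CPM alone it stood higher, at a mean of 231 CPM in oil controls, below Prss50, Dmrt1 and Taf4b. In 23KRA wild type it averaged 254 CPM, below Dmrt1 alone. Kit (chromosome 5, 75574916 to 75656722, plus strand of GRCm38) has 8911 bases of merged exons, the longest of the set. Merged exons join all annotated transcripts of a gene and can be longer than any single one, so the order per length depends on that choice. The level of Kit per length was 25.9 ± 4.44 CPM per kb of exon in oil controls and 27.2 ± 4.53 after tamoxifen (SD, n = 2 each), the lowest of the 9 in both groups. In the 23KRA experiment it was 28.6 ± 1.76 CPM per kb in wild type and 29.0 ± 3.13 in homozygotes (SD, n = 5 each), where its range overlapped that of Sohlh1. The highest per length in the deletion experiment was Prss50, at 318 ± 64.5 CPM per kb in controls, followed by Dmrt1 at 168 ± 3.67 and Rhox13 at 156 ± 1.33, and the libraries of these neighbours did not overlap. Below them came Dmrtb1 at 87.4 ± 6.22, then Taf4b at 72.1 ± 3.23, Sohlh1 at 69.0 ± 1.44, Esx1 at 65.9 ± 15.4 and Sohlh2 at 58.0 ± 0.765 CPM per kb. From Taf4b to Sohlh2 each range overlapped the next, through the wide range of Esx1, although Taf4b and Sohlh1 both lay above Sohlh2 in both libraries. After tamoxifen the same 3 genes led and Kit was last, while Taf4b stood above Dmrtb1 and Sohlh2 above Esx1.

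Rhox13 led per length in the 23KRA experiment, at 228 ± 15.9 CPM per kb in wild type, and Dmrt1 followed at 121 ± 14.7 (SD, n = 5), with no overlap between them or with the next gene. The other 7 genes lay between 46.6 ± 10.1 CPM per kb for Dmrtb1 and 28.6 ± 1.76 for Kit, and each overlapped its neighbour. Prss50, first in the deletion experiment, was in the middle of the order here, at 41.1 ± 7.52 CPM per kb. The exon lengths are from GENCODE, and the annotation behind the authors' counts is not known here, so genes with uncertain ends could shift in this order. The kits and the animals of the 2 experiments cannot be told apart as sources of the different orders.

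**Figure D1:**
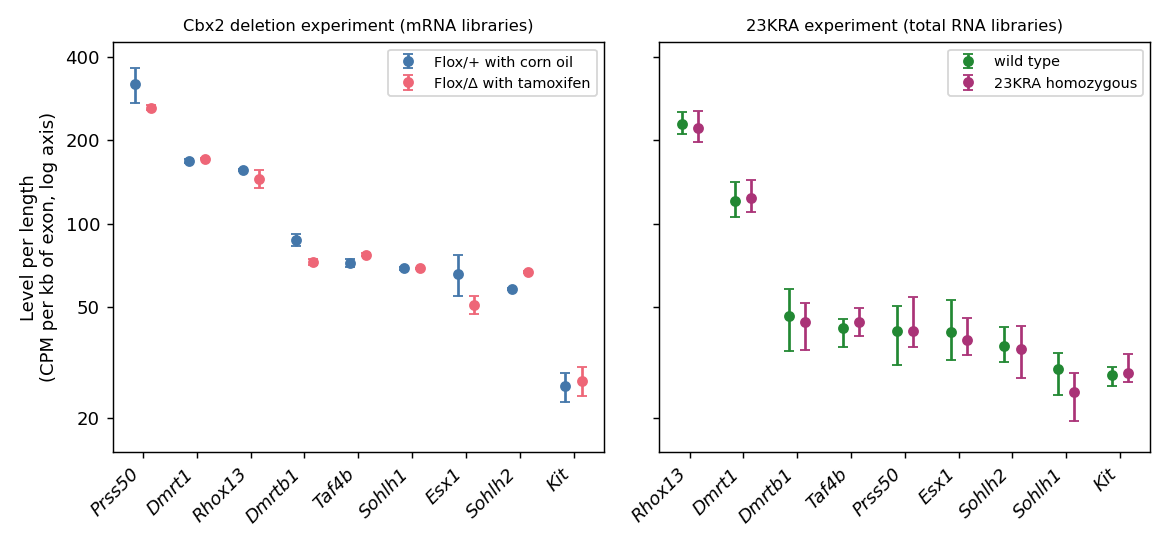
Level per length of each gene (CPM per kb of merged exon, log axis) in the deletion experiment and the 23KRA experiment; points are group means and bars run from the lowest to the highest library. Kit sits lowest among the deletion libraries at 25.9 CPM per kb in controls, and Prss50 goes from 318 CPM per kb in the deletion controls to 41.1 in the 23KRA wild type.

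The first comparison asked whether deletion of Cbx2 changed these genes, and no member passed in the main test, which had no replicate block. Of 9 members, 0 had an edgeR adjusted p under 0.05, against 0.012% of all 16725 genes tested. DESeq2 and limma-voom called 0 as well. At an unadjusted p under 0.05 there were 3 members in the edgeR test, Dmrtb1, Esx1 and Prss50, all lower after tamoxifen, where 4.74% of all genes had such a p; DESeq2 had 4, where 397 of 21404 genes did, and limma-voom had 3, where 801 of 16725 did. The median log2 fold change of the members was 0.00075, with 5 above 0 and 4 below (51% of all genes were below), and that of all genes was -0.0044. The libraries of the groups did not overlap for 6 members, 3 higher and 3 lower, but with 2 libraries a group 33.1% of all genes do not overlap, 15.6% higher and 17.5% lower.

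Kit stood at 203 and 259 CPM in oil controls 1 and 2 and at 214 and 271 CPM in tamoxifen animals 1 and 2. The libraries numbered 2 were the high ones in both groups, and the groups overlapped. The log2 fold change was 0.068 (SE 0.13, with adjusted p = 0.974 in edgeR), with a 95% interval from 0.877-fold to 1.25-fold of the control. It was -0.087 without oil control 1 and -0.11 without tamoxifen animal 2, so its sign rests on single libraries. A truncated Kit transcript is known from mouse spermatids, and counts over the whole gene do not separate it from the receptor's transcript.

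Of the 2 factors that promote Kit transcription, Sohlh1 differed little between the groups. Sohlh1 (chromosome 2, 25842995 to 25847248, minus strand) had 87.6 and 90.2 CPM in controls and 89.6 and 88.3 CPM after tamoxifen, with a log2 fold change of 0.00075 and a 95% interval from 0.851-fold to 1.18-fold. Sohlh2 (chromosome 3, 55182028 to 55209957, plus strand) had 138 and 136 CPM in controls and 160 and 158 CPM after tamoxifen, so that both tamoxifen animals lay above both controls. Its log2 fold change was 0.21 (SE 0.11, with adjusted p = 0.971 in edgeR), and the interval ran from 0.993-fold to 1.35-fold. For Sohlh2 the exact permutation test (two-sided) gave p = 0.333, which is the smallest that 2 libraries a group allow. The estimate for Sohlh2 stayed between 0.20 and 0.24 when each library was left out in turn.

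The DM-domain genes gave different values. Dmrt1 (chromosome 19, 25505618 to 25604329, plus strand) was at 428 and 442 CPM in controls and 447 and 443 CPM after tamoxifen, a narrow gap without overlap. The interval for Dmrt1 ran from 0.883-fold to 1.19-fold. Dmrtb1 (chromosome 4, 107676290 to 107684230, minus strand) was at 173 and 191 CPM in controls and at 148 and 156 CPM after tamoxifen, and both tamoxifen animals lay below both controls. Its log2 fold change was -0.26 (SE 0.11, with adjusted p = 0.971 in edgeR), or 83.5% of the control mean, with an interval from 0.715-fold to 0.975-fold that is not adjusted for the number of genes. The estimate was -0.19 without oil control 2.

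Esx1 and Prss50 had the largest differences among the members, and both leaned on 1 control library. Esx1 (chromosome X, 137115397 to 137122083, minus strand) was at 109 and 152 CPM in controls 1 and 2 and at 93.9 and 109 CPM after tamoxifen. Control 2 was far above the other 3 libraries, and control 1, at 109.3 CPM, lay just above tamoxifen animal 2, at 109.1 CPM. The log2 fold change of Esx1 was -0.37 (SE 0.13, with adjusted p = 0.971 in edgeR), and it was -0.11 without control 2 and -0.58 without control 1. With replicate number as a block, Esx1 alone of the members was called, at -0.35 with adjusted p = 0.0264 in edgeR. That block called 62 of all 16725 genes tested, against 2 in the main test. The labels do not state that replicate numbers pair the animals. Prss50 (chromosome 9, 110857967 to 110864629, plus strand) had 396 and 529 CPM in controls and 374 and 388 CPM after tamoxifen. Again control 2 stood apart, and the log2 fold change of -0.28 (SE 0.12, with adjusted p = 0.971 in edgeR) was -0.057 without it and -0.46 without control 1. Of 16 spermatid genes listed, 16 had a log2 fold change below 0 in this comparison and 0 were called in edgeR (6 had an unadjusted p under 0.05), with a summed level of 4272 to 4586 CPM in controls and 3634 to 4199.7 CPM after tamoxifen. The part of these cells in the values of Esx1, Prss50 and Dmrtb1 was not tested.

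For the remaining pair, Taf4b had 383 and 360 CPM in controls and 394 and 402 CPM after tamoxifen (chromosome 18, 14783245 to 14900359, plus strand). The tamoxifen animals were the higher ones, and the interval for Taf4b ran from 0.925-fold to 1.24-fold. Rhox13 (chromosome X, 38121219 to 38129967, plus strand) had 138 and 136 CPM in controls and 136 and 117 CPM after tamoxifen. Tamoxifen animal 2 was the low one for Rhox13, and the interval ran from 0.789-fold to 1.09-fold.

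**Figure D2:**
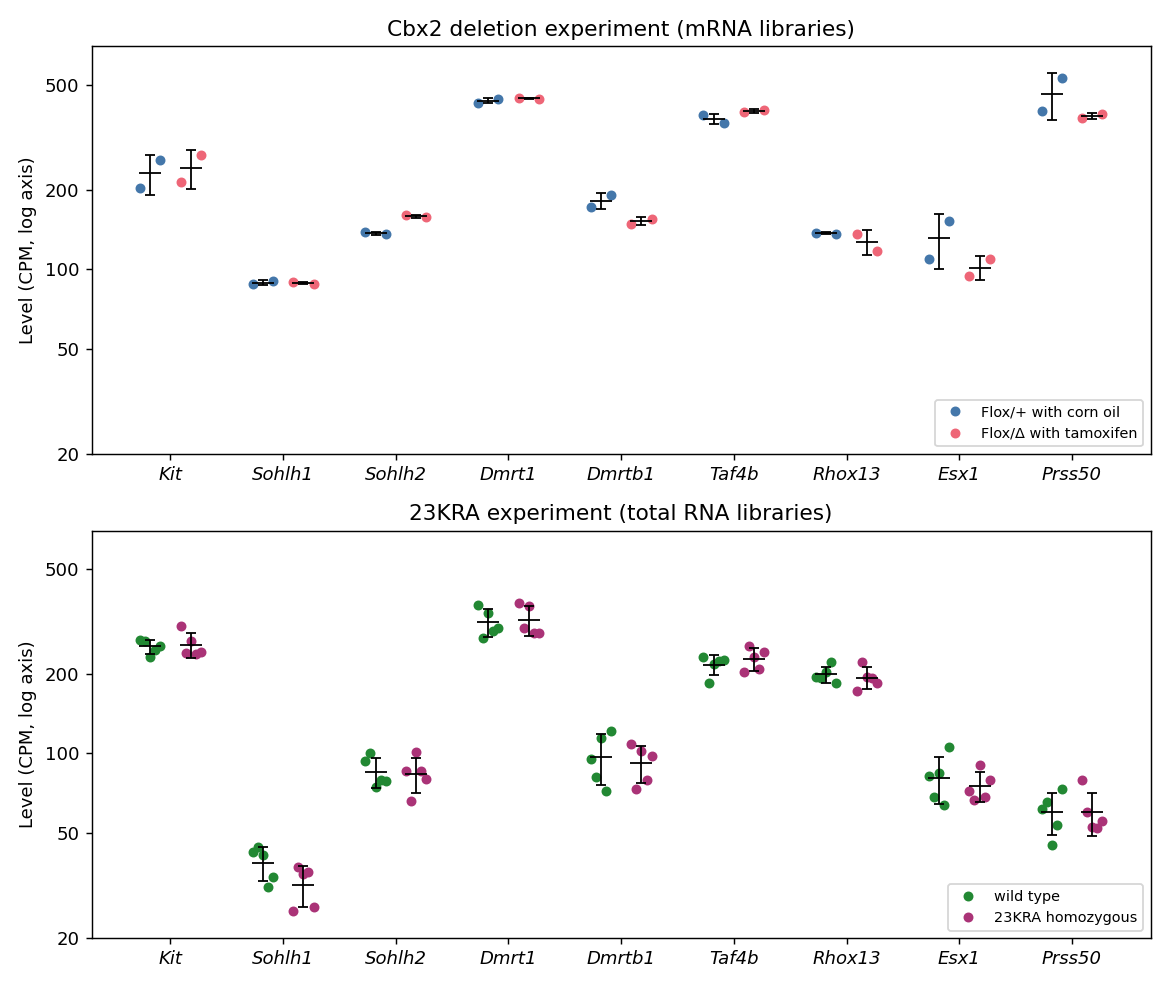
Level of each gene in each library (CPM, log axis), with the deletion experiment above and the 23KRA experiment below; points are libraries, and black bars are group means with SD (n = 2 and n = 5 a group). For Esx1 and Prss50 the second oil control, at 152 and 529 CPM, is the point that stands above the rest of its experiment.

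The second comparison asked whether the 23KRA substitutions changed these genes, and no member passed. Of 9 members, 0 had an edgeR adjusted p under 0.05, against 0% of all 14208 genes tested, and 0 had an unadjusted p under 0.05, against 3.04%. DESeq2 and limma-voom gave 0 members by either measure. The median log2 fold change of the members was -0.028, with 4 above 0 and 5 below, beside 0.0034 for all genes, of which 49.2% were below 0. In no member did the groups fail to overlap, and 0.711% of all genes did not overlap, 0.436% higher and 0.274% lower.

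Sohlh1 had the largest difference among the members. In wild-type replicates 1 to 5 it was at 42.4, 44.1, 41.1, 31.1 and 33.9 CPM, and in homozygous replicates 1 to 5 at 25.2, 37.3, 34.8, 35.6 and 26.2 CPM. Homozygotes 1 and 5 were the lowest of the 10 and wild-type animals 1, 2 and 3 the highest, with the others mixed between them. The means were 38.5 ± 5.69 and 31.8 ± 5.67 CPM (SD, n = 5 each), and the log2 difference was -0.28 (SE 0.16, with adjusted p = 1.00 in edgeR). The exact two-sided permutation test gave p = 0.119 for Sohlh1, where 0.00794 is the smallest possible. The 95% interval ran from 0.653-fold to 1.04-fold, the widest of the members on the log2 scale, and the estimate lay between -0.34 and -0.21 with each library left out in turn. Whether this value differs from that of the deletion was not tested.

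Its partner Sohlh2 had a wild-type mean of 85.4 ± 11.1 CPM and a homozygous mean of 83.7 ± 12.7 CPM (SD, n = 5 each). The homozygous libraries of Sohlh2 ran from 65.9 to 101 CPM and enclosed the wild-type range of 74.9 to 101 CPM. The interval for Sohlh2 was 0.825-fold to 1.17-fold.

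Kit was at 270, 268, 232, 246 and 256 CPM in wild-type replicates 1 to 5 and at 303, 239.5, 268, 239 and 242 CPM in homozygous replicates 1 to 5. Homozygote 1 was the highest of all 10, and the other 4 lay within the wild-type range. The log2 fold change was 0.021 (SE 0.082, with adjusted p = 1.00 in edgeR), with a 95% interval from 0.901-fold to 1.14-fold. It was -0.052 without homozygote 1 and -0.0096 without wild-type animal 3.

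The DM-domain genes varied more between animals than between genotypes. Dmrtb1 was at 95.5, 81.8, 115, 72.2 and 121 CPM in wild-type replicates 1 to 5 and at 108, 73.3, 102, 79.6 and 98.1 CPM in homozygous replicates 1 to 5. Low and high animals of both genotypes were interleaved, and the interval ran from 0.776-fold to 1.16-fold. Dmrt1 averaged 314 ± 38.1 CPM among wild-type and 322 ± 42.3 CPM among homozygous animals (SD, n = 5 each), with an interval from 0.893-fold to 1.18-fold.

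Esx1 was at 82.1, 68.5, 84.5, 63.8 and 106 CPM in wild-type replicates 1 to 5 and at 72.4, 66.7, 90.8, 68.2 and 79.0 CPM in homozygous replicates 1 to 5. The homozygous libraries all fell inside the wild-type range, and the interval for Esx1 ran from 0.771-fold to 1.13-fold. Prss50 had 61.7, 65.2, 45.1, 53.5 and 73.6 CPM among wild-type and 79.0, 59.9, 52.5, 52.3 and 55.7 CPM among homozygous animals, in the same order of replicates. Homozygote 1 was the highest for Prss50, and the interval ran from 0.813-fold to 1.23-fold. Esx1 and Prss50 were lower in tamoxifen animals by the values above, and a difference between the experiments was not tested.

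Taf4b averaged 217 ± 18.8 CPM among wild-type and 228 ± 22.0 CPM among homozygous animals, and Rhox13 200 ± 13.9 and 194 ± 18.7 CPM (SD, n = 5 each). The libraries of the genotypes overlapped for both genes. Their intervals, 0.928-fold to 1.19-fold for Taf4b and 0.859-fold to 1.10-fold for Rhox13, were with those of Kit and Dmrt1 the narrowest of the set.

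**Figure D3:**
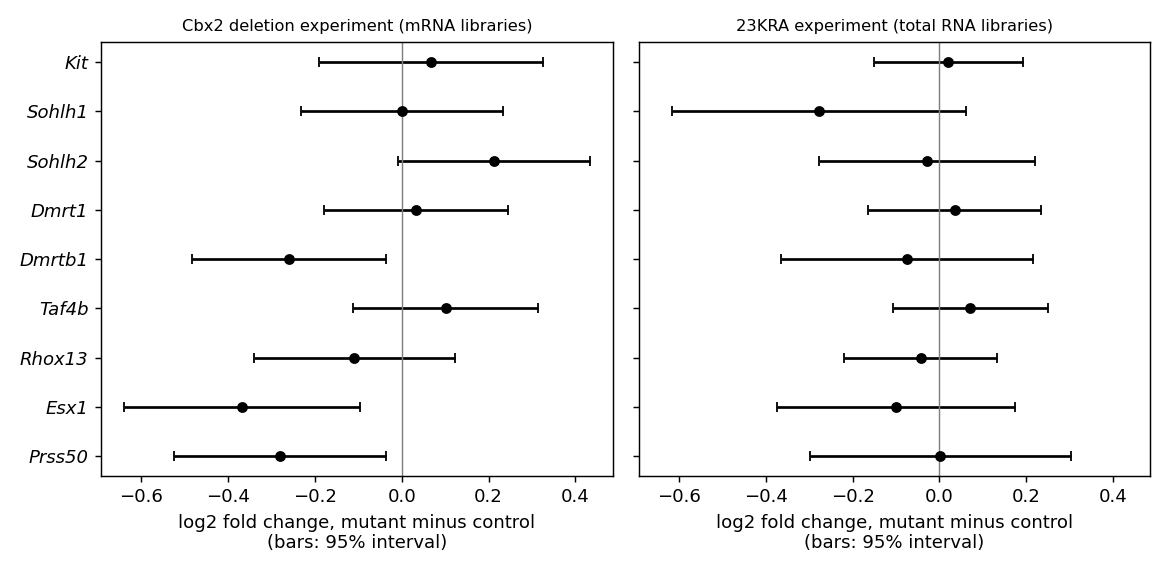
Log2 fold change of each gene, mutant minus control, with its 95% interval (not adjusted for the number of genes), in the deletion experiment on the left and the 23KRA experiment on the right. The intervals of Dmrtb1, Esx1 and Prss50 lie below 0 in the deletion experiment, where none had an adjusted p under 0.05, and all 9 intervals span 0 in the 23KRA experiment.

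Genes that act with the members showed no call in either experiment. Of 44 genes of KIT signalling, 44 were tested in the deletion experiment with 25 above 0 and a median log2 fold change of 0.025, and 42 in the 23KRA experiment with 21 above 0 and a median of 0.0031. The most abundant of them in the 23KRA experiment was the ribosomal protein gene Rps6, at means of 466 CPM (wild type) and 459 CPM (homozygotes). The ligand gene Kitl was at most 2.20 CPM in the deletion libraries and at most 3.88 CPM in the 23KRA libraries.

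For 25 other genes of differentiating and early meiotic germ cells, medians were 0.055 in the deletion and -0.050 in 23KRA, with 14 and 9 above 0. Dazl, which encodes a germ cell RNA-binding protein, was at 3126 ± 306 and 3468 ± 181 CPM in the deletion experiment (SD, n = 2 each) and at 680 ± 65.5 and 766 ± 31.8 CPM in the 23KRA experiment (SD, n = 5 each). Sycp1, of the synaptonemal complex, was at 1291 and 1358 CPM and at 1164 and 1183 CPM in the same order. The retinoic acid list had medians of 0.024 over 19 genes and -0.0085 over 16, and undifferentiated spermatogonia 0.0019 over 25 and -0.066 over 16. In these 2 lists the most abundant after Stra8 were Crabp1, a retinoic acid binding protein gene, at 212 and 220 CPM in the deletion and 121 and 118 CPM in 23KRA, and Uchl1, a ubiquitin hydrolase gene, at 481 and 481 CPM and at 299 and 293 CPM.

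Relatives of the members were also described. Of the genes for other TFIID subunits and TBP-like factors, 18 were tested in each experiment, with 14 and 11 above 0 and medians of 0.029 and 0.018. Taf7l, a germ cell TFIID subunit gene on the X chromosome, was their most abundant, at 863 and 876 CPM in the deletion and 835 and 814 CPM in 23KRA. Of 7 other DM-domain genes, 6 were tested in each, with 1 above 0 in the deletion (median -0.15) and 4 above 0 in 23KRA (median 0.36). In 23KRA, Dmrt2, Dmrta1, Dmrta2 and Dmrtc1a averaged 1.28 to 2.72 CPM with SE from 0.65 to 1.11, so that median rests largely on genes of low count. Dmrtc2, a testis gene of this family, was at 54.7 ± 4.04 and 46.7 ± 3.38 CPM in the deletion (SD, n = 2 each) and 8.77 ± 4.01 and 12.3 ± 2.71 CPM in 23KRA (SD, n = 5 each). Of the other X-linked homeobox genes, 19 were tested in the deletion (median 0.090) and 16 in 23KRA (median 0.11); several are near-identical copies whose counts are uncertain. A list of ovary genes linked to SOHLH1 and LHX8 had a median of 0.32 over 7 genes in the deletion and -0.056 over 6 in 23KRA. The 7 include Lhx8 itself and the ligand gene Kitl (log2 fold change 0.39), so the list is not one of oocyte targets only. The deletion median is the value of Gdf9 (SE 0.36), and Gdf9, Kitl, Pou5f1 and Nobox averaged only 1.45 to 4.15 CPM there. Lhx8 itself was at 20.9 ± 0.488 and 27.8 ± 0.895 CPM in the deletion (SD, n = 2 each; log2 fold change 0.41, SE 0.14, with adjusted p = 0.971 in edgeR) and at 14.9 ± 2.33 and 13.2 ± 2.75 CPM in 23KRA (SD, n = 5 each).

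Markers of other cell types that the sort could hold were summed in each library. Genes of Leydig cells, which also carry KIT, summed to 116 to 122 CPM in controls and 97.4 to 109 CPM after tamoxifen. Most of that sum was the lipoprotein receptor gene Scarb1, with means of 92.6 and 83.2 CPM, and 1 of 10 tested, the androgen synthesis gene Cyp17a1, fell from 6.07 ± 1.84 to 1.66 ± 0.281 CPM (SD, n = 2 each; log2 fold change -1.86, SE 0.26, with adjusted p = 0.00315 in edgeR). Of the 10, 8 were below 0 and 2 above, Hsd3b6 and the receptor gene Lhcgr, with a median log2 fold change of -0.29. Among those below 0, Insl3 was at 1.70 and 0.491 CPM (log2 fold change -1.79, SE 0.45, with adjusted p = 0.485 in edgeR). Lhcgr was at 0.345 and 0.979 CPM (log2 fold change 1.48, SE 0.53, with adjusted p = 0.971 in edgeR). In 23KRA the Leydig sum was 67.6 to 86.4 CPM for wild type against 57.1 to 68.6 CPM for homozygotes. Scarb1 made up 61.9 and 46.4 CPM of it on average. Only 4 Leydig genes were tested there, with 3 above 0, a median of 0.35 and 0 called in edgeR. Macrophage genes summed to 187 to 198 and 173 to 238 CPM in the deletion, and to 31.2 to 207 and 27.5 to 62.9 CPM in 23KRA. Their median log2 fold change was 0.32 in the deletion, with 13 of 16 above 0, 3 at an unadjusted p under 0.05 and 0 called in edgeR, and -0.81 in 23KRA, with 0 of 7 above 0 and 0 called. The 23KRA sums averaged 74.0 CPM in wild type, a mean that leans on the library at 207 CPM, and 45.3 CPM in homozygotes. How far the 23KRA median rests on that library was not tested. The largest part of the deletion sum was Aif1, a calcium-binding protein gene, at 119 ± 4.65 and 104 ± 6.66 CPM (SD, n = 2 each), whose log2 fold change of -0.19 was opposite in sign to that of the MHC class II genes listed. Mast cell genes summed to at most 21.0 CPM in any deletion library and 14.5 CPM in any 23KRA library. Sertoli, peritubular, endothelial and spermatocyte lists had medians of 0.10, -0.059, 0.066 and 0.013 in the deletion and -0.015, -0.12, -0.39 and -0.026 in 23KRA, with no call. The spermatid sum in 23KRA was 769 to 2005 CPM for wild type against 668 to 2028 CPM for homozygotes, with 14 of 16 genes below 0. The part of any of these cells in the members' values was not tested.

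**Figure D4:**
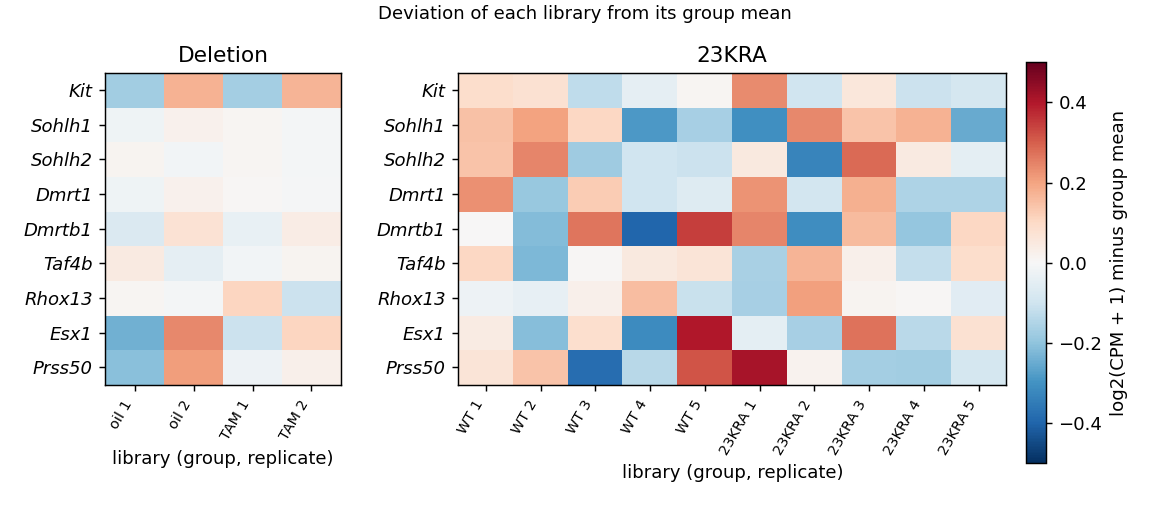
Deviation of each library from its group mean, log2(CPM + 1), for each gene in the deletion libraries (oil, tamoxifen) and the 23KRA libraries (wild type, homozygous). Kit is lower in both libraries numbered 1 than in both numbered 2 of the deletion experiment, and no 23KRA library is high or low for all 9 genes.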

How the data were processed

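RNA was measured in 14 libraries of sorted cells. The authors deposited unnormalized read counts for each gene symbol. The submitters' processing notes name mm10, the aligner STAR 2.5.3, Trim Galore 0.4.3, Subread 1.5.0 with featureCounts, and SAMtools 1.4.1. Strand setting, annotation and the handling of multimapping reads are not given in sources used here. No member shares exon bases with another gene in GENCODE M21.

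Each table was fitted alone in edgeR 4.0.16 (R 4.3.3): filterByExpr, TMM factors, and the quasi-likelihood F test (two-sided), its p-values adjusted by Benjamini-Hochberg over all genes, with a threshold of 0.05. A standard error is the size of the log2 fold change divided by the square root of F, and 95% intervals use the fit's total degrees of freedom. Levels are CPM on TMM-scaled library sizes. Permutation tests used log2(CPM + 1). DESeq2 1.42.0, limma-voom (limma 3.58.1), other scalings, no filter, a replicate block and leaving out each library were alternatives. p-values measure the spread between libraries, and in edgeR that spread is estimated partly from other genes. In the deletion fit, 23.8 of 25.8 degrees of freedom were borrowed from other genes, and 2 came from a gene's own libraries. In the 23KRA fit, 12.7 of 20.7 were borrowed. The edgeR intervals thus do not show a gene's own spread between animals alone. Sequencing depth sets counting error only. Amplified reads are not independent molecules.

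Members and lists were chosen with earlier results of these data known. The 9 members are all named. From other lists the text gives genes that passed, up to 4, or the most abundant 2 or fewer. Further genes of these lists, among them Insl3, Lhcgr, Hsd3b6, Kitl, Gdf9 and Rhox10, are named outside that rule and were not chosen blind to their values. Genes most like Kit are the 5 of smallest root mean square difference from Kit in group-centred log2(CPM + 1) over the 23KRA libraries, among genes of at least 10 CPM that are not predicted models. Some genes that these rules name are not reported here. The pairs of members compared for sign were chosen after values were seen. Sequences were printed from RefSeq's table for GRCm38.p6, and gene positions are from GENCODE M21 on GRCm38.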

Additional observations from a re-analysis of the deposited data

Results flagged for a closer look

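Prss50 in homozygous replicate 1 of the 23KRA experiment, at 79.0 CPM, lay apart from the other 4 homozygous libraries, which reached 59.9 CPM. Its gap to the nearest of them was 0.715 of the range of the group, past Dixon's 95% limit. Each of the 9 genes was screened in both 23KRA groups, 18 groups in all, and such a screen flags about 0.05 of groups by chance.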

How the results depend on the processing

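No member was called in either experiment with no filter, upper quartile scaling, size factors of DESeq2, DESeq2 itself, limma-voom or any 1 library left out (0 to 0 members). The exception was the replicate block in the deletion, with 1 member called: Esx1, with adjusted p = 0.0264 in edgeR and a log2 difference of -0.35. Replicate numbers are not stated to pair the animals. Deviations of same-numbered libraries correlated at 0.41 in the deletion. This is a single value for both pairs, because with 2 libraries a group the deviations are mirror images. In 23KRA the correlations ran from -0.043 to 0.43, and 8 of 10 libraries correlated best with their own number among the 5 libraries of the other group. The main test does not model a deviation shared by same-numbered libraries. The block moved the genes called among all genes from 2 to 62 of 16725 in the deletion and from 0 to 2 of 14208 in 23KRA. That count in the deletion was 8 without a filter, 1 in DESeq2 and in limma-voom, 11 without oil control 1, 3 without oil control 2 and 73 without tamoxifen animal 2. Some estimates changed sign. Sohlh1 in the deletion was -0.0029 without a filter. Prss50 in 23KRA was -0.0027 with DESeq2 size factors, -0.0038 with upper quartile scaling, -0.0045 without a filter and -0.0032 in DESeq2. With 1 library left out, log2 fold changes in the deletion ran from -0.11 to 0.25 for Kit and from -0.0095 to 0.022 for Sohlh1. In 23KRA they ran from -0.052 to 0.049 for Kit, -0.11 to 0.047 for Sohlh2, -0.033 to 0.098 for Dmrt1, -0.16 to 0.019 for Dmrtb1, -0.18 to 0.014 for Esx1 and -0.13 to 0.088 for Prss50. Their cause was not tested. With 2 libraries a group, the deletion limits what a permutation test can show.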

Other observations

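The genes whose levels over the 10 libraries of the 23KRA experiment were most like those of Kit, after the group mean was taken from each, were not members. The nearest 4 were Pabpn1, which encodes a nuclear poly(A)-binding protein, Kdm2a, a histone demethylase gene, the zinc finger gene Zfp39, and Dock9, an exchange factor gene for small GTPases. Their root mean square differences from Kit were 0.025, 0.047, 0.055 and 0.058 on the log2 scale, where Kit itself deviated by 0.11. Among 8699 genes ranked, the nearest member was Dmrt1, in place 980 with a difference of 0.14, and Sohlh1 was the farthest, in place 5763 with 0.26. The measure favours genes of small spread, and the 10 libraries are shared by all values.

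Dmrtb1 and Esx1 were above or below their group means together in 9 of the 10 libraries, the highest of 36 pairs of members, whose median was 5. Kit and Sohlh2, like Kit and Prss50, did so in 8, and Kit and Rhox13 in 2. These counts are a description of pairs compared after the values were seen. In the deletion experiment, Rhox10, an X-linked homeobox gene of spermatogonia, was at 7.91 ± 1.29 CPM in controls and 10.8 ± 2.98 CPM after tamoxifen (SD, n = 2 each; log2 fold change 0.45, SE 0.19, with adjusted p = 0.971 in edgeR).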
